A study of Mus musculus with 12 samples.

Results

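The 10 genes described here, Mest, H19, Meg3, Peg3, Dlk1, Cdkn1c, Plagl1, Grb10, Ndn and Sgce, are imprinted genes, most of them tied to the control of growth. They were picked by symbol from the 23446 genes of the deposited expression table. Mest was chosen for its rise in differentiation medium, so its values in that medium are given as a description with no test. In 8 of the 10 genes at least 1 read was counted, and 7 had enough reads to be tested beside the 12230 genes that entered the fit.

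The samples were 12 RNA-seq libraries of C2C12, an established mouse myoblast line that divides in growth medium and begins to fuse into myotubes in differentiation medium. Cells in growth medium (GM) or differentiation medium (DM) received acetoacetate (AA), a ketone body, or PBS, the control, for 12 h. Medium and treatment made 4 groups of 3 libraries, named GM-PBS and GM-AA in growth medium and DM-PBS and DM-AA in differentiation medium. The study asked which genes respond to AA while the cells proliferate or differentiate. All groups are the same line, and the reads were not assigned to parental alleles, so which allele was read is not known. Whether replicate libraries are separate cultures is not stated in the labels, so p-values measure the spread between these libraries, which may be technical.

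Imprinted genes are read mainly from the copy inherited from the mother or from the father, because DNA methylation set in the germ line marks a control region near the gene. Many lie in clusters that hold genes of both kinds, and paternally expressed members often promote growth of the embryo while maternally expressed members often restrain it. Several are abundant in embryonic muscle and decline after birth. In myoblasts H19, Dlk1, Cdkn1c and Peg3 have each been tied to the choice between division and differentiation.

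Some of these genes are also hosts of microRNAs. Exons of Meg3, which had no read, overlap the annotated microRNA genes Mir770 and Mir1906-1. The mature sequences from H19 and Mest are shown because a read in the host gene is not a measure of the microRNA, which was not measured here. The microRNA miR-675 lies within an annotated exon of H19 on chromosome 7, and miR-335 lies within Mest on chromosome 6 outside its annotated exons. Bases 2 to 8, the seed, are in capitals, and the 4 seeds differ from each other (RefSeq, GRCm38.p6).
mmu-miR-675-5p, chr7:142577112-142577133, minus strand: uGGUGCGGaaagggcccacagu
mmu-miR-675-3p, chr7:142577078-142577099, minus strand: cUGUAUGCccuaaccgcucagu
mmu-miR-335-5p, chr6:30741314-30741336, plus strand: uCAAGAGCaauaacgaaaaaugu
mmu-miR-335-3p, chr6:30741354-30741375, plus strand: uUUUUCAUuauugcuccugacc

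Promoter windows of 300 bases were matched by symbol to 7 of the 10 genes, with H19, Cdkn1c and Sgce missing. The windows of Mest and Peg3 are shown because Mest had the steepest difference between the media and Peg3 answered AA differently in them. Mest has annotated start sites several kilobases apart, and the counts per gene do not tell which was used. CpG dinucleotides, the bases that imprint methylation acts on, are in capitals.
Mest upstream start, chr6:30733256-30733555, plus strand: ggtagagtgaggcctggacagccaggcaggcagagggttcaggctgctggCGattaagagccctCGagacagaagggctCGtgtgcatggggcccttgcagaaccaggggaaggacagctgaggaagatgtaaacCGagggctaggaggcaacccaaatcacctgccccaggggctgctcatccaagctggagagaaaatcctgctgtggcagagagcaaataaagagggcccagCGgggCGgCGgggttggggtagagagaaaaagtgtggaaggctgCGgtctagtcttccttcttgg
Mest downstream start, chr6:30737800-30738099, plus strand: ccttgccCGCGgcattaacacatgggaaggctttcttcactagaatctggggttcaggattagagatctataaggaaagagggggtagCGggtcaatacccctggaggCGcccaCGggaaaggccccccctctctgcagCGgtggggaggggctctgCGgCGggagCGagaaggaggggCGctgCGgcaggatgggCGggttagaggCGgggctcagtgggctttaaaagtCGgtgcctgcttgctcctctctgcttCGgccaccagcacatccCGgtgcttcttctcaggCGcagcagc
Peg3, chr7:6730370-6730669, minus strand: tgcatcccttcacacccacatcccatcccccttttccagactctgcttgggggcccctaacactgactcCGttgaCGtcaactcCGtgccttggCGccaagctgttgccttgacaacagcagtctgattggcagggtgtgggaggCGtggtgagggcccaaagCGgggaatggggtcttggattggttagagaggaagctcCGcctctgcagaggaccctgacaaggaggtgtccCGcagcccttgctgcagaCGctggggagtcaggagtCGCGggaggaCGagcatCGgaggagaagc

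The upstream Mest window held 8 CpG dinucleotides, the downstream one 17 and the Peg3 window 13, against a median of 7 over 32851 windows of all genes. ZFP57, a zinc finger protein that keeps imprints methylated in the early embryo, reads the hexamer TGCCGC. On both strands together this hexamer was found 2 times in the downstream Mest window and not in the upstream Mest or the Peg3 window, while 11.6% of all windows held it. The E-box CANNTG, the site of myogenic basic helix-loop-helix factors such as MyoD, was found 2 times in the upstream and 1 time in the downstream Mest window, and not in that of Peg3. It was in 72.3% of all windows. The YY1 motif GCCATNTT was in none of the 3 windows and in 6.05% of all. These matches describe letters and do not show binding or methylation, which were not measured.

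Library totals ranged from 7959519 to 9893564 counted reads. Levels below are RPKM, the deposited length- and depth-scaled read counts, given as mean ± SD over the 3 libraries of a group. Differences are log2 fold changes ± SE from a quasi-likelihood fit in edgeR to the counts, and adjusted p is the Benjamini-Hochberg value over all 12230 tested genes. The labelled cell type was checked against 6 myoblast markers. Des averaged 485 RPKM, Myod1 64.1, Cdh15 55.7, Myog 25.4, Myf5 18.6 and Pax7 4.67 over the 12 libraries. Myog, which rises as myoblasts commit to differentiation, averaged 5.05 RPKM in GM-PBS, 6.49 in GM-AA, 30.7 in DM-PBS and 59.4 in DM-AA. Between the media in PBS Myog, Cdh15, Pax7 and Myf5 were higher. Myod1 was lower there (log2 -0.45 ± 0.049, edgeR adjusted p = 1.98e-09) and Des did not pass. In AA Myog, Cdh15 and Pax7 were higher between the media and none lower. With AA in GM Myf5, Cdh15, Des and, only just, Myog (adjusted p = 0.0489) were higher. Myod1 was lower with AA in GM (-0.34 ± 0.049, adjusted p = 3.52e-06). With AA in DM Myog, Cdh15, Des and Myf5 were higher. Of the adipocyte markers Plin1 and Lep had no read, and the summed level of the 6 adipocyte markers, most of it Pparg, was 3.67 to 5.02 RPKM in GM-PBS and 3.26 to 3.47 with AA, against 1.75 to 2.18 for PBS and 1.38 to 1.63 for AA in DM. The 4 endothelial and the 4 epithelial markers summed to at most 0.267 and 0.243 RPKM in a library, and the 4 immune markers to at most 2.60, most of it Cd68. Between the media Cd68 fell in PBS (log2 -0.93 ± 0.25, edgeR adjusted p = 0.00207) and in AA (-0.78 ± 0.24, adjusted p = 0.00634). The 4 neural markers, nearly all Tubb3, summed to 103.1 to 118 RPKM in GM-PBS and 104 to 111 with AA, against 84.3 to 84.6 for PBS and 99.5 to 103 for AA in DM. Tubb3 fell between the media in PBS (-0.42 ± 0.048, adjusted p = 4.79e-09) and rose with AA in DM (0.25 ± 0.049, adjusted p = 0.000149). The part of these markers in the differences below was not tested. GC content also moved with treatment, since the correlation across genes of a library's deviations with GC lay between 0.00741 and 0.209 in the PBS libraries and between -0.175 and -0.0609 in the AA libraries. H19 has a GC content of 55.8% and Peg3 of 46.8%, and their values with that trend removed are given below.

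The levels spanned several orders of magnitude. Averaged over all 12 libraries, H19 stood at 672 RPKM and Peg3 at 71.2, followed by Sgce at 12.5, Ndn at 5.90, Mest at 5.74, Cdkn1c at 1.40, Plagl1 at 0.172 and Grb10 at 0.0258. Meg3 and Dlk1 had no read. The plot of levels by library gives each gene its own axis. Mest changed its place in this order, since it lay below Cdkn1c in GM-PBS and, in DM, above Ndn.

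**Figure D1:**
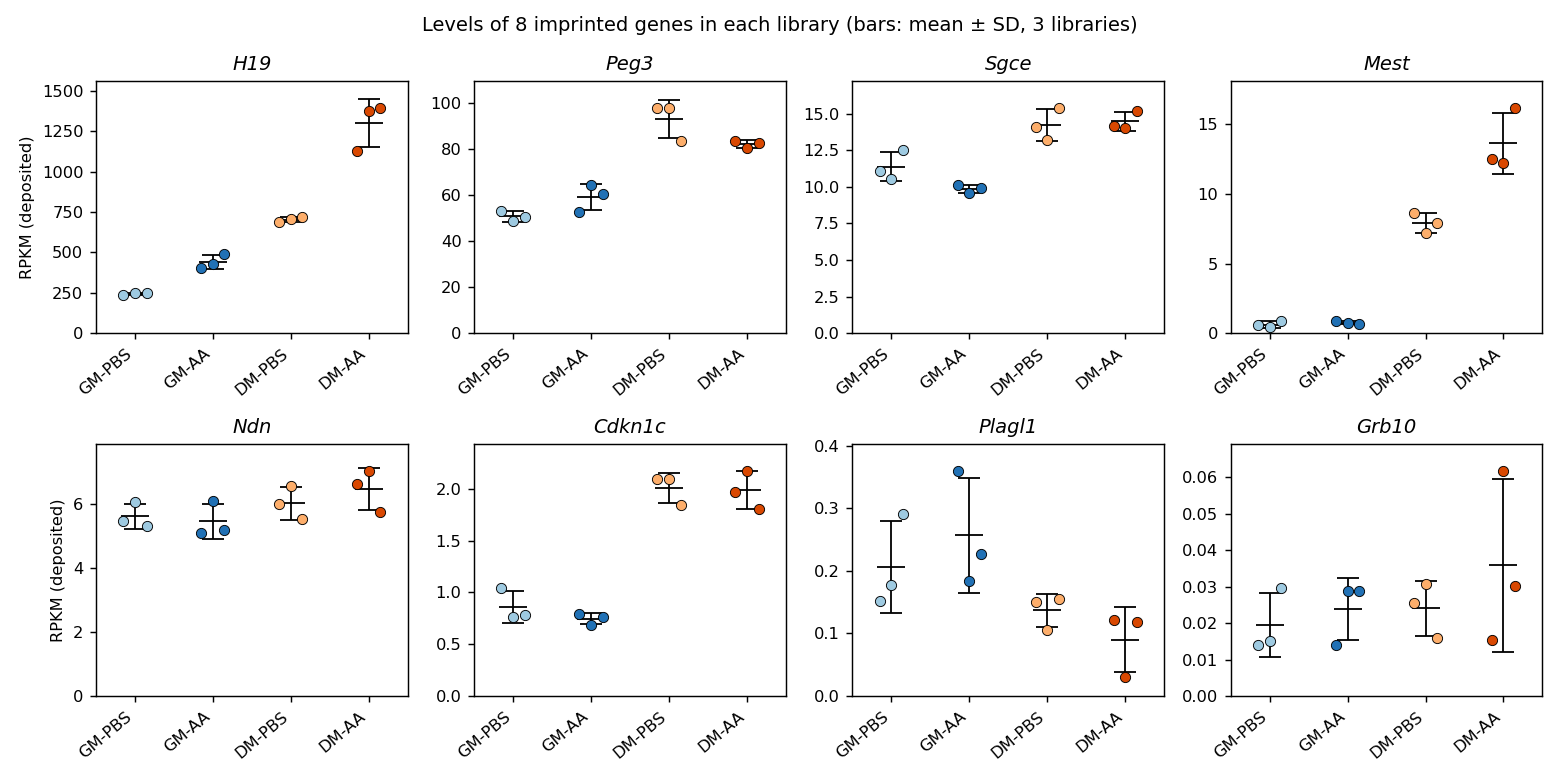
RPKM (vertical axes, each from 0) of the 8 imprinted genes with reads, by group (horizontal axes). Points are the 3 libraries of a group and bars the mean ± SD; H19 climbs through the 4 groups without overlap, from a mean of 245 to 1300.2 RPKM, and Mest separates the GM from the DM libraries.

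H19 was the gene with the clearest response to acetoacetate. It encodes a maternally expressed long noncoding RNA that is a precursor of miR-675. In GM-PBS its libraries stood at 236, 248 and 250.2 RPKM, and in GM-AA at 403, 429 and 491. In DM-PBS they stood at 687, 706 and 717, and in DM-AA at 1129.7, 1377 and 1394. No 2 of the 4 groups overlapped, and each step was larger than the spread within groups. The group means were 245 ± 7.57, 441 ± 44.9, 703 ± 15.0 and 1300.2 ± 148 RPKM (SD, n = 3 each).

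With AA H19 rose 1.79-fold in GM (log2 0.84 ± 0.063, edgeR adjusted p = 8.76e-12) and 1.83-fold in DM (0.87 ± 0.062, adjusted p = 6.97e-13). The difference between these changes, 0.04 ± 0.088 on the log2 scale with a 95% interval from -0.14 to 0.21, did not pass the test (adjusted p = 0.904). Between the media H19 rose 2.82-fold in PBS and 2.89-fold in AA (adjusted p = 7.37e-20 and 3.08e-20 with edgeR). These medium and treatment comparisons share libraries, so they are set side by side and not counted as separate support. After removal of each library's GC and length trend the AA differences were 0.89 in GM and 0.94 in DM. In GM-PBS H19 ranked 87 to 96 among all genes by RPKM, and in DM-AA it ranked 6 to 10, with 0.461 to 0.566% of all counted reads. Annotated exons of other genes cover 5.73% of the H19 exon bases on the opposite strand, and the strandedness of the libraries is not known.

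Igf2, the paternally expressed growth factor gene beside H19, also rose with AA, at low levels. Its libraries held 34, 41 and 25 reads in GM-PBS, 56, 58 and 60 in GM-AA, 72, 51 and 54 in DM-PBS, and 110, 116 and 125 in DM-AA. In RPKM this was 0.594 ± 0.151, 1.01 ± 0.0464, 1.04 ± 0.0776 and 2.19 ± 0.116. The AA libraries lay above the PBS libraries in both media. The difference was 0.76 ± 0.18 in GM (edgeR adjusted p = 0.0021) and 1.06 ± 0.13 in DM (adjusted p = 2.02e-07). An annotated readthrough transcript, Gm49394, covers 62.8% of the Igf2 exon bases on the same strand, so reads of these transcripts cannot be told apart here. Igf2r, whose receptor clears IGF2 from the cell surface, rose with AA in GM (0.30 ± 0.052, edgeR adjusted p = 4.75e-05) and stood at 0.11 ± 0.053 in DM (adjusted p = 0.11).

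Peg3 moved with AA in opposite directions in the 2 media. It encodes a paternally expressed zinc finger protein. The libraries stood at 555, 508 and 525 CPM (counts scaled to library size with TMM factors) in GM-PBS against 540.3, 668 and 632 in GM-AA. In DM-PBS they stood at 1006, 1001 and 853, and in DM-AA 851, 818 and 836. The GM groups overlapped, through the first GM-AA library, and in DM every AA library lay below every PBS library on this scale, 853 against 851 at the nearest. In RPKM the means were 50.7 ± 2.33, 59.1 ± 5.82, 92.9 ± 8.13 and 82.1 ± 1.63. On that scale the third DM-PBS library and the first DM-AA library stood at 83.5 and 83.6, so the groups overlapped there, as they did by share of counted reads (0.0854% and 0.0864%), where no TMM factor enters.

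Peg3 rose 1.16-fold with AA in GM (0.21 ± 0.061, edgeR adjusted p = 0.011). In DM it fell to 0.876 times the PBS level (-0.19 ± 0.060, adjusted p = 0.0155). Neither call was firm. The GM call was lost with DESeq2 (adjusted p = 0.0825) and without GM-PBS replicate 2 (0.0516), GM-AA replicate 2 (0.117) or GM-AA replicate 3 (0.0542). The DM call was lost with DESeq2 (0.121) and without DM-PBS replicate 1 (0.107), DM-PBS replicate 2 (0.101) or DM-AA replicate 2 (0.0615). The difference between the 2 responses, tested on its own, was -0.40 ± 0.085 (95% interval -0.57 to -0.24, edgeR adjusted p = 0.00244), and it passed in all 19 alternatives, with values from -0.49 to -0.34 and adjusted p from 1.83e-07 to 0.0275. After removal of the GC and length trend the AA differences were 0.19 in GM and -0.18 in DM. Between the media Peg3 rose 1.80-fold in PBS and 1.36-fold in AA (adjusted p = 5.85e-14 and 1.35e-07).

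Zim1, a maternally expressed zinc finger gene next to Peg3 on chromosome 7 with no exon base in common, had the same signs in every comparison. It stood at 3.77, 4.08 and 3.16 RPKM in GM-PBS and at 4.57, 4.97 and 5.23 in GM-AA. In DM-PBS it stood at 11.4, 12.4 and 9.61, and in DM-AA at 9.15, 9.35 and 9.41. All AA libraries were above PBS in GM and below PBS in DM. It rose with AA in GM (0.41 ± 0.10, edgeR adjusted p = 0.00405) and fell in DM (-0.27 ± 0.078, adjusted p = 0.0083), the latter call being lost without DM-PBS replicate 2 (-0.19, adjusted p = 0.0971). The difference of the responses was -0.69 ± 0.13 (adjusted p = 0.000842) and passed in all 19 alternatives. Between the media Zim1 rose 2.98-fold in PBS and 1.85-fold in AA (adjusted p = 2.44e-16 and 2.38e-10). Usp29, the paternally expressed neighbour on the other side, had 9 to 17 reads per library and passed no test.

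**Figure D2:**
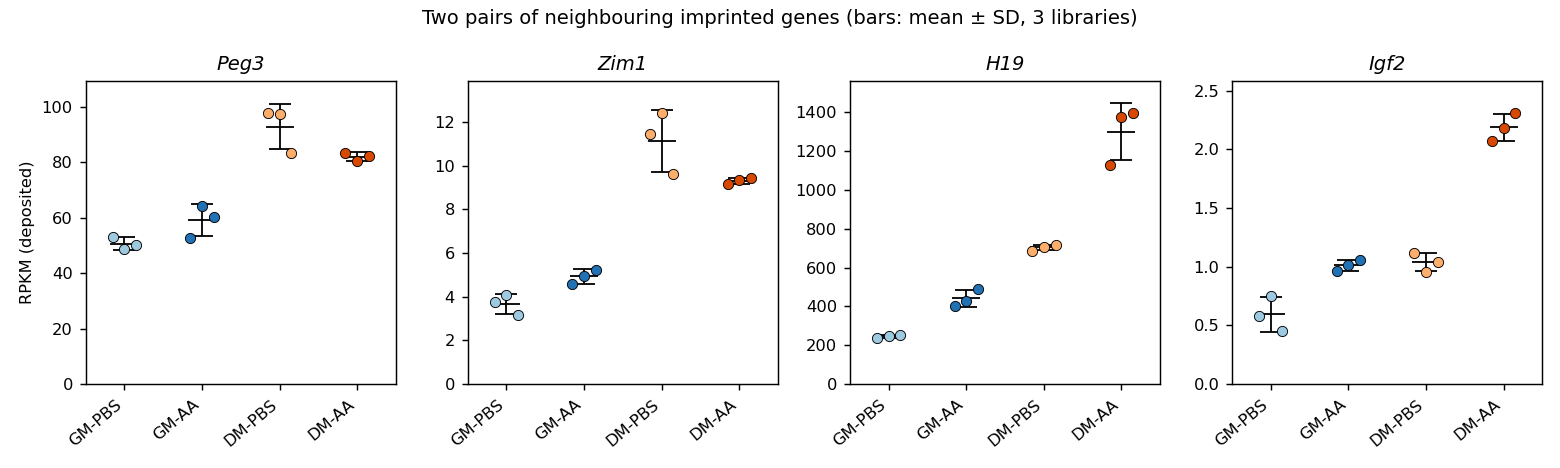
RPKM (vertical axes, each from 0) by group of Peg3 with its neighbour Zim1 and of H19 with its neighbour Igf2; points are the 3 libraries of a group and bars the mean ± SD. H19 and Igf2 are higher with AA in both media, while the means of Peg3 and Zim1 are higher with AA in GM and lower with AA in DM. On this scale the AA and PBS libraries overlap for Peg3 in both media.

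Mest, a paternally expressed gene for a protein of the alpha/beta hydrolase fold, had few reads in GM and many more in DM. The libraries held 22, 16 and 32 reads in GM-PBS and 33, 29 and 25 in GM-AA. They held 367, 251 and 269 in DM-PBS and 436, 427 and 575 in DM-AA. The lowest DM library was thus far above the highest GM library, and all DM-AA libraries lay above all DM-PBS libraries. In RPKM the means were 0.633 ± 0.222, 0.770 ± 0.0973, 7.91 ± 0.732 and 13.7 ± 2.19.

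In growth medium, the comparison that did not choose it, Mest did not pass the test for AA (0.27 ± 0.27, 95% interval -0.27 to 0.81, edgeR adjusted p = 0.535). That interval leaves room for a change as large as the one seen in DM. As a description, Mest was 12.3-fold higher in DM-PBS than in GM-PBS and 17.3-fold higher in DM-AA than in GM-AA. It was 1.70-fold higher in DM-AA than in DM-PBS. The response in DM exceeded that in GM by 0.50 ± 0.29 on the log2 scale, and by 0.19 without GM-PBS replicate 3, the GM-PBS library with most Mest reads. In bulk libraries more Mest per cell and more cells with Mest cannot be told apart, here as for the other genes.

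Copg2, a coatomer subunit gene read toward Mest from the opposite strand, covers 23.1% of the Mest exon bases, and reads in that stretch could belong to either gene. It stood at 3.99 ± 0.264 RPKM in GM-PBS and 4.94 ± 0.499 in DM-PBS, and rose between the media by 0.28 ± 0.091 in PBS (edgeR adjusted p = 0.011) and by 0.42 ± 0.093 in AA (adjusted p = 0.000306). The PBS call was lost without GM-PBS replicate 2 or DM-PBS replicate 3. With AA it did not pass in GM (-0.14 ± 0.096) or in DM (0.00 ± 0.089). Klf14, further along the same cluster, had no read.

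Genes with a profile like that of Mest were ranked over the 12 libraries by Pearson correlation of log2 CPM among 8062 genes with a mean of at least 5 RPKM in some group. The 5 closest were Slc43a2 (r = 0.995), Iffo1 (0.994), Ccnb2 (0.993), Fgfr4 (0.992) and Lrrc17 (0.992). Fgfr4, a fibroblast growth factor receptor, averaged 0.479, 0.696, 3.70 and 6.87 RPKM in PBS and AA in GM and then in PBS and AA in DM. Ccnb2, a cyclin of mitosis, averaged 11.0, 12.1, 22.6 and 26.7 in that order. Such correlations were common, since 3.27% of the ranked genes exceeded 0.95 and the libraries share their group structure and depth. H19 correlated with Mest at 0.918 (rank 482), Sgce at 0.890 (rank 720), Peg3 at 0.888 (rank 750) and Ndn at 0.506. A correlation above 0.9 was reached by 7.85% of the ranked genes. The other chosen genes with reads lay below 5 RPKM in every group and were not ranked.

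Cdkn1c, a maternally expressed gene for the cyclin-dependent kinase inhibitor p57Kip2, rose between the media and did not pass the test for AA. The libraries held 28, 19 and 20 reads in GM-PBS, 21, 18 and 20 in GM-AA, 62, 51 and 44 in DM-PBS, and 48, 53 and 45 in DM-AA. Every DM library was above every GM library. The rise was 2.28-fold in PBS (1.19 ± 0.19, edgeR adjusted p = 3.32e-06) and 2.60-fold in AA (1.38 ± 0.20, adjusted p = 5.95e-07). The AA difference was -0.22 ± 0.24 in GM and -0.03 ± 0.16 in DM (adjusted p = 0.585 and 0.907). In DM the 95% interval ran from -0.35 to 0.28. Annotated exons of Gm44732 on the opposite strand cover 30.7% of the Cdkn1c exon bases. Of its neighbours, Kcnq1 and Phlda2 had at most 1 read in a library, Slc22a18 at most 4, and Kcnq1ot1, the noncoding RNA of the cluster, passed no test. Nap1l4, a histone chaperone gene at the edge of the cluster, fell between the media, by 0.34 ± 0.053 in PBS (adjusted p = 1.36e-06).

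Plagl1, a paternally expressed zinc finger transcription factor gene that regulates other imprinted genes, was counted at the edge of what can be tested. It had 11, 12 and 20 reads in GM-PBS and 26, 13 and 16 in GM-AA, then 12, 7 and 10 in DM-PBS and 8, 2 and 8 in DM-AA. It passed the filter on low counts through the GM libraries. Having entered the fit by its GM counts, it is given between the media as a description with no test: it stood at -1.52 ± 0.39 in AA, where the groups did not overlap, and at -0.60 ± 0.37 in PBS. With AA the values were 0.31 ± 0.32 in GM and -0.61 ± 0.46 in DM, neither past the test (adjusted p = 0.544 and 0.359). Phactr2, its neighbour, had at most 1 read.

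Sgce, a paternally expressed gene for epsilon-sarcoglycan, a membrane protein related to those of the dystrophin complex in muscle, rose moderately between the media. Its libraries stood at 11.1, 10.6 and 12.5 RPKM in GM-PBS, 10.1, 9.59 and 9.89 in GM-AA, 14.1, 13.2 and 15.4 in DM-PBS, and 14.2, 14.0 and 15.2 in DM-AA. All DM libraries were above all GM libraries. The rise was 1.23-fold in PBS (0.30 ± 0.076, edgeR adjusted p = 0.00141) and 1.44-fold in AA (0.52 ± 0.078, adjusted p = 9.05e-07). In GM every AA library lay below every PBS library, yet the difference of -0.21 ± 0.081 missed the threshold (adjusted p = 0.0571). It passed once GC and length trends were removed (adjusted p = 0.00842) or without GM-PBS replicate 2 (0.0373). In DM the AA difference was 0.01 ± 0.074 (adjusted p = 0.914).

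Peg10, a retrotransposon-derived gene that starts beside Sgce and is read the other way, rose between the media, from 7.43 ± 0.370 to 15.6 ± 0.440 RPKM in PBS (1.05 ± 0.056, edgeR adjusted p = 3.38e-17) and from 6.38 ± 0.539 to 14.9 ± 0.491 in AA (1.19 ± 0.057, adjusted p = 2.1e-18). With AA it fell in GM (-0.23 ± 0.062, adjusted p = 0.00681), a call lost without GM-AA replicate 2 (adjusted p = 0.0645), and stood at -0.08 ± 0.052 in DM. Casd1, on the other side of Sgce, rose by 0.55 ± 0.091 in PBS and 0.44 ± 0.088 in AA between the media (adjusted p = 4.14e-06 and 8.04e-05).

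Ndn, a paternally expressed gene of the MAGE family that restrains cell division, passed no test. It stood at 5.47, 6.07 and 5.32 RPKM in GM-PBS, 5.11, 6.10 and 5.19 in GM-AA, 5.99, 6.56 and 5.53 in DM-PBS, and 6.63, 7.05 and 5.77 in DM-AA, and all groups overlapped. The 95% interval for AA ran from -0.27 to 0.18 in GM and from -0.13 to 0.31 in DM, and that between the media from -0.15 to 0.30 in PBS and from -0.0049 to 0.44 in AA. It passed between the media in AA when either of 2 single libraries was left out. A change of 2-fold lay outside each of these 4 intervals. Of its neighbours, Magel2, Snrpn and Snurf were listed at 0, while Mkrn3 with 6 to 16 reads and Peg12 with 36 to 53 passed no test.

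Grb10, an adaptor that damps insulin and IGF receptor signalling, had 1 to 4 reads per library and was not tested. A count of 3 reads corresponded to 0.0381 to 0.0474 RPKM for it. Dlk1, a membrane protein related to Notch ligands, and Meg3, the long noncoding RNA of the same cluster on chromosome 12, were listed at 0 in all 12 libraries. A count of 0 allows up to 3 reads, or 0.0409 to 0.0508 RPKM for Dlk1 and 0.0152 to 0.0189 for Meg3, in counting error alone. Gapdh, Ppia and Rpl10, which every cell uses, were listed at 0 as well, so a 0 in this table was not read as absence of the RNA. Rtl1 and Rian of the Dlk1 cluster were also at 0, and Mirg and Dio3 had at most 1 read.

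**Figure D3:**
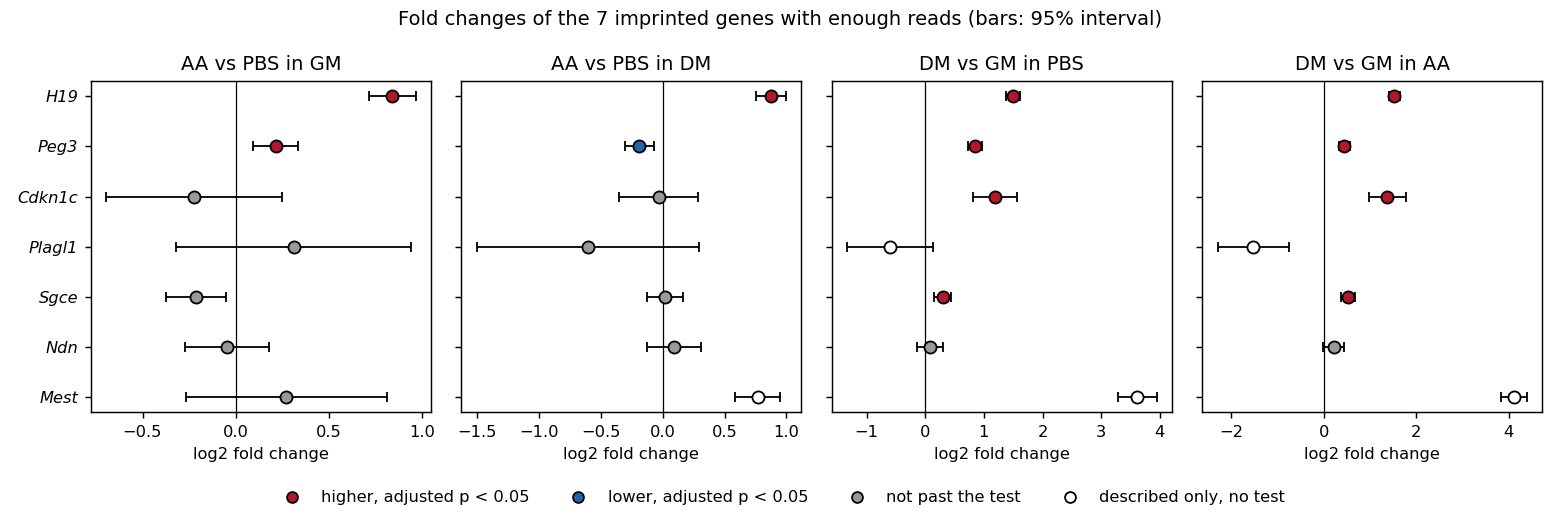
Log2 fold changes of the 7 tested imprinted genes with their 95% intervals in the comparisons of AA with PBS in GM and in DM and of DM with GM in PBS and in AA. The interval of H19 lies above 0 in each panel, that of Ndn spans 0 in each, and open points mark Mest and Plagl1 where they are described with no test. Each panel has its own horizontal scale.

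Across the tested genes, AA in GM gave 2 genes higher of 7 (H19 and Peg3), where 9.76% of all tested genes were higher. None was lower with edgeR, where 11.0% of all tested genes were. At an unadjusted p under 0.05, 1 gene, Sgce, was lower, and DESeq2 called 0 lower. The median log2 difference was 0.21, against -0.0034 over all genes. In DM, with Mest left out, 1 of 6 was higher (H19) and 1 lower (Peg3), where the shares of all genes were 12.6% and 13.8%, and the median was -0.0098. With so few genes tested, these counts describe them and say nothing particular about the list. Between the media in PBS 4 of 5 were higher (H19, Peg3, Cdkn1c and Sgce), where 27.0% of all genes were higher and 27.4% lower. In AA the same 4 were higher, where the shares of all genes were 25.9% higher and 26.3% lower. Plagl1 is left out of both counts, since it entered the fit through GM. The response to AA differed between the media for 1 of 6, Peg3, which was lower, where 2.58% of all genes had a higher and 2.67% a lower response in DM.

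A list of 66 other imprinted genes gave the setting, of which 39 could be tested. They are called imprinted by membership of this list only. Whether each of them is read from 1 parental copy in C2C12 was not measured. With AA 7 were higher and 6 lower in GM, where 9.76% and 11.0% of all tested genes were. In DM 7 were higher and 6 lower too, where 12.6% and 13.8% of all were. The medians of 0.069 and -0.012 were near those of all genes. Without GM-PBS replicate 1 the lower count in GM was 2, without GM-AA replicate 3 it was 3, and the lower count in DM was 3 with DESeq2 or without DM-PBS replicate 1. Between the media 13 were higher and 7 lower in PBS (27.0% and 27.4% of all genes), and 10 higher and 7 lower in AA (25.9% and 26.3%). The responses to AA differed between the media for 3, with Gatm higher in DM, and Zim1 and Dcn lower (2.58% and 2.67% of all genes). DESeq2 called Gatm and Zim1 and gave Dcn no adjusted p. The separate calls of Dcn for AA in GM and in DM were not firm. They were lost with DESeq2 (adjusted p = 0.0593 in GM and 0.0787 in DM) and when some single libraries were left out. The plot of the AA responses in GM against those in DM shows Peg3, Zim1 and Dcn among the genes in the corner of a rise in GM and a fall in DM. Plagl1 lies there too, at 0.31 and -0.61, past neither test, as do further genes that passed no test.

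**Figure D4:**
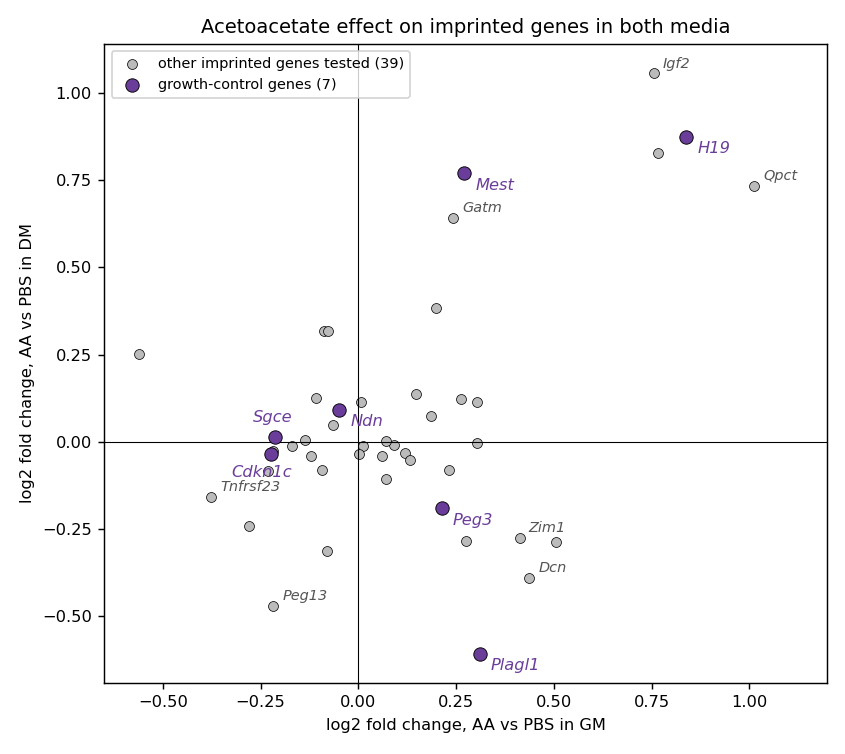
Log2 fold change with AA in DM (vertical axis) against that in GM (horizontal axis) for the tested imprinted genes, the 7 chosen ones and the 39 others. The 2 axes share no library; H19 and Igf2 lie high on both, and Peg3, Zim1 and Dcn are among the genes to the right of 0 on the horizontal axis and below 0 on the vertical one.

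A list of genes that maintain imprints or act on DNA methylation was read in the same libraries, with 16 of 19 genes tested. Besides maintenance genes it holds Dnmt3a, Dnmt3b and the Tet genes, which set or remove methylation, and these enter the counts below. It is called imprint maintenance for short. Between the media in PBS 4 were higher and 7 lower, where 27.0% and 27.4% of all tested genes were, with a median of -0.043. The 4 higher were Zfp57, Tet3, Dnmt3b and Dnmt3a, and the 7 lower included Tet2. Uhrf1, which brings the maintenance methyltransferase to newly copied DNA, fell from 43.8 ± 0.535 to 18.7 ± 0.511 RPKM (-1.25 ± 0.050, edgeR adjusted p = 1.49e-20). Dnmt1, that methyltransferase, fell from 18.5 ± 0.274 to 10.4 ± 0.760 (-0.85 ± 0.058, adjusted p = 1.85e-14). Zfp57, the reader of the hexamer searched above, rose from 8.07 ± 0.781 to 14.6 ± 0.409 (0.83 ± 0.067, adjusted p = 1.5e-12). In AA 6 were higher and 7 lower, where 25.9% and 26.3% of all were, with a median of -0.12. Smchd1, 1 of the 7 lower, only just passed (edgeR adjusted p = 0.0482). Its call was lost in 12 of 20 alternatives, DESeq2 among them (adjusted p = 0.101).

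With AA, 5 of these 16 were higher and 1 lower in DM, where 12.6% and 13.8% of all tested genes were. In GM 1 was higher and 1 lower, where 9.76% and 11.0% were. In DM Uhrf1 rose to 22.9 ± 1.27 RPKM (0.28 ± 0.052, adjusted p = 1.06e-04) and Ezh2, the histone H3 lysine 27 methyltransferase, to 11.0 ± 0.470 (0.35 ± 0.075, adjusted p = 5.76e-04). Smchd1 and Zfp445 rose too, by 0.36 ± 0.064 and 0.20 ± 0.046, as did Dnmt1 by 0.21 ± 0.060 (adjusted p = 4.39e-05, 0.00133 and 0.00958). The Dnmt1 call was lost without DM-PBS replicate 3 (adjusted p = 0.0791) or DM-AA replicate 3 (0.0682). In GM Uhrf1 fell (-0.19 ± 0.047, adjusted p = 0.00275). The single genes called lower in DM (Zfp57) and higher in GM (Zfp445) lost their calls under several alternatives. DNA methylation was not measured, and the part of these genes in the values of the imprinted genes was not tested.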

How the data were processed

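RNA of 12 C2C12 libraries was sequenced. The authors deposited one table with raw read counts per gene and RPKM, per the file headers. BWA 0.5.9-r16 and the mouse build mm9 are named in the submitters' processing notes. No source used here gives the counting rule, annotation or strand. The deposited RPKM were used as levels.

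All counts were fitted in edgeR 4.0.16 (R 4.3.3) with 4 group means, TMM factors, filterByExpr by group, quasi-likelihood tests (two-sided) and Benjamini-Hochberg adjustment at 0.05. Counts of 7959519 to 9893564 per library limit genes below about 10 reads. CPM are counts scaled to library size with TMM factors, and correlations with Mest used log2(CPM + 1). The fit was also run on simulated counts, with the same dispersion for all genes and changes only in well-counted ones. That run does not cover genes with few reads or a spread of their own. Alternatives were DESeq2 1.42.0, RLE factors, library totals, filters, only the compared groups, a replicate block, GC and length trend removed, and each library left out. Exon overlaps and GC came from GENCODE on GRCm38, matched by symbol, since the files use mm9. Intervals are at 95%, and floors of 3 reads cover counting error only.

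The members and the gene lists (other imprinted genes, imprint maintenance and DNA methylation, markers) were chosen with earlier results of these data known. Named were all members, up to 4 genes per list and comparison with the smallest p among those past the test, neighbours of members, myoblast markers and the 5 genes most like Mest. Names outside this rule are those of counts of 5 or fewer or of neighbours.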

Additional observations from a re-analysis of the deposited data

Results flagged for a closer look

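Among the chosen and listed genes, the response to AA differed between the media for 12 by the test of that difference itself (edgeR, adjusted over all tested genes). Over all 12230 tested genes 641 were called, 2.58% with a higher and 2.67% with a lower response in DM. Values are the log2 response in DM minus that in GM. Among the chosen genes this was Peg3 (-0.40), and among the other imprinted genes Zim1 (-0.69), Dcn (-0.83) and Gatm (0.40). DESeq2 called Zim1 and Gatm and gave no adjusted p for Dcn. Dcn, the gene of the proteoglycan decorin, averaged 2.82 ± 0.534 RPKM in GM-PBS, 3.83 ± 0.512 in GM-AA, 4.35 ± 0.267 in DM-PBS and 3.36 ± 0.324 in DM-AA.

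Among the imprint maintenance genes the differences were 0.32 for Dnmt1, 0.47 for Uhrf1, 0.38 for Smchd1 and 0.50 for Ezh2. The Dnmt1 call was lost without DM-PBS replicate 3 (adjusted p = 0.0545) or DM-AA replicate 3 (0.0565).

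Among the cell type markers they were 0.40 for Myod1, -0.37 for Myf5, 0.59 for Myog and 0.30 for Tubb3. The Myog call was lost without GM-PBS replicate 3 (adjusted p = 0.0602) or GM-AA replicate 1 (0.051), and that of Myf5 without GM-PBS replicate 1 (0.0618), GM-AA replicate 3 (0.0966) or DM-AA replicate 1 (0.066).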

How the results depend on the processing

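Over the 35 values of the 7 tested genes in 5 comparisons, 690 alternative values were computed. Of these 663 kept the direction and the side of the threshold or, for Mest where it had no test, moved by less than its spread. Of the rest 8 lost a call, 5 gained one, 12 changed sign (0 of them values past the test), and 2 values of Mest with no test moved by more than its spread. Plagl1 between the media, described above with no test, was scored by the threshold in these counts. Where 2 groups were compared, some alternatives left out a library of a group not compared, which could hardly change the value. The counts are therefore a record and no measure of how firm the results are. The number of chosen genes past the test for AA went from 2 to 1 with DESeq2 in GM and from 2 to 1 in DM. Leaving out 1 library gave 1 to 2 in GM and 1 to 2 in DM, with Peg3 as the gene lost. After removal of the GC and length trend Cdkn1c stood at 0.064 and Sgce at -0.058 for AA in DM. Leaving out 1 library gave, for AA in GM, -0.0059 to 0.64 for Plagl1 and -0.14 to 0.012 for Ndn. For AA in DM it gave -0.10 to 0.031 for Cdkn1c and -0.031 to 0.069 for Sgce, and for the difference of the H19 responses -0.033 to 0.13. Mest was higher in DM-PBS than in GM-PBS by 3.92 without GM-PBS replicate 3. Ndn between the media in AA passed without GM-AA replicate 2 (adjusted p = 0.0453) or DM-AA replicate 3 (0.0474). Same-numbered libraries deviated together no more than others did (correlations from -0.0676 to 0.0823, against -0.0763 to 0.0816). With 3 libraries in a group this cannot show whether the numbers mark shared cultures, which the labels do not say. The main fit used no pairing. With a replicate block Sgce passed for AA in GM (-0.21, adjusted p = 0.0467), so 3 genes passed there in place of 2; no other call of the chosen genes changed. Over all tested genes the block gave 2444 calls for AA in GM.

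Without the block edgeR called 2534 for AA in GM, and DESeq2 1798; in DM the latter called 2444 against 3230 with edgeR. Imprint maintenance counts of 1 went to 0, 2 or 3 in GM, and the 4 higher between the media in PBS went to 2 with DESeq2. At this depth Plagl1 and Grb10 cannot show changes of the size seen for Peg3. For AA in GM the SE was 0.27 for Mest, 0.24 for Cdkn1c and 0.12 for Ndn, against a Peg3 change of 0.21. A change of that size could be missed in these genes too.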

Other observations

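Several of the other imprinted genes changed with medium or treatment. Tnfrsf23, a decoy receptor gene for the death ligand TRAIL, fell between the media from 49.6 ± 0.829 to 13.5 ± 0.684 RPKM in PBS (-1.90 ± 0.052, edgeR adjusted p = 6.53e-25). With AA it fell in GM to 38.5 ± 1.60 RPKM (-0.38 ± 0.046, adjusted p = 1.93e-07). Gatm, the gene of the first enzyme of creatine synthesis, rose with AA from 19.3 ± 0.142 to 30.3 ± 1.63 RPKM in DM (0.64 ± 0.058, adjusted p = 1.97e-10) and from 25.0 ± 1.76 to 29.8 ± 1.55 in GM (0.24 ± 0.056, adjusted p = 0.00183).

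Peg13, a noncoding RNA gene within Trappc9, fell with AA in DM from 10.7 ± 0.635 to 7.75 ± 0.117 RPKM (-0.47 ± 0.060, adjusted p = 1.87e-07). Qpct, a glutaminyl cyclase gene, rose with AA from 0.970 ± 0.193 to 1.97 ± 0.305 RPKM in GM (1.01 ± 0.20, adjusted p = 3.91e-04). Cobl, an actin regulator gene beside Grb10, rose between the media 1.54-fold in PBS and 2.02-fold in AA (adjusted p = 1.15e-06 and 2.44e-11), in cells where Grb10 itself had at most 4 reads a library.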
